A study of Hypericum perforatum with 6 samples.

Results

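In the premeiotic ovule nucellus of *Hypericum perforatum* (St John's wort), 28 assembly loci were lower in every library of aposporous plants than in any library of sexual plants by a factor of at least 2. An assembly locus is a group of related transcripts that the assembler placed together, and each is given here by its number, because the deposited table pairs it with no gene name. For every locus the expression of its transcripts was summed as RPKM, reads scaled by transcript length in kilobases and by the mapped reads of the library. Members were chosen by these measured sums and had at least 10 reads in every library and a lowest sexual value at least 2 times the highest aposporous value. They are 28 of the 25226 loci of the table, and of the 4334 that had 10 reads in every library once locus 2, which groups 33877 transcripts of the table, and the loci of 3 variants from the *IDN2-like* and *FDM1,4-like* family (L1163_T42_51, L5704_T2_3 and L13153_T20_20) were left out. The difference between phenotypes chose these loci, so their levels are a description and carry no test.

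RNA came from laser-microdissected nucellus, 250000 µm2 of sections per library, of greenhouse-grown tetraploid accessions whose reproductive mode had been scored by flow cytometry of seeds. Sexual libraries 1 to 3 and aposporous libraries 1 to 3 each pooled the RNA of 3 plants, and no treatment was applied. No source used here says whether the pools came from separate accessions, so spread between libraries is spread between pools. Mapped reads ran from 29355488 to 39483349 per library, no library repeated another within counting noise, and locus 2 alone took 83.1% to 84.1% of reads. Because transcripts are not paired with gene names, the nucellus label was not checked against markers, nor were markers of neighbouring ovule tissues.

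The nucellus is the somatic tissue of the ovule that surrounds the cell destined for meiosis. In sexual plants the embryo sac descends from a product of that meiosis, whereas apospory bypasses meiosis and starts the embryo sac from a somatic cell of the nucellus. A lower level in bulk tissue can reflect fewer cells of a type or less RNA per cell, which cannot be told apart here. For some *FDM-like* variants the paper found significantly higher levels in aposporous ovules only with the assembled transcripts as reference. With genes predicted from a sexual diploid genome, means were still higher but the difference was not significant. The paper describes sequence variability and expression as apparently linked at those genes. It reports *IDN2-like B* as lower in aposporous ovules with both references. Whether the listed loci are sequence variants carried mainly by the sexual pools was not tested. Sequences and genome positions of the loci were not analysed here.

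Within the table, the name "whole locus" applied only in part. The transcript names give the number of transcripts assembled per locus, and the 28 loci had 792 assembled transcripts, of which the table held 45. Every assembled transcript was in the table for 7 loci (25.0%), each of which had 1 transcript of 257 to 730 nt, compared with 7.38% of the 4334 loci and 19.2% of the loci that met the mirror image of the rule, at least 2 times higher in every aposporous library. A single transcript stood for the locus at 16 of the 28 (57.1%, against 48.5% of the 4334 and 69.2% of the mirror loci), 8 loci had 2 transcripts, 3 had 3 and locus 2331 had 4. Locus 4688 was the extreme, with 2 transcripts in the table of 123 assembled. The sums below are therefore sums over the transcripts in the table.

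The rule selected 28 of 4334 loci (0.646%), and its mirror image selected 26 (0.600%). Without the factor of 2, phenotypes did not overlap for 433 loci that were lower (9.99%) and 357 that were higher (8.24%) in aposporous ovules. Over the 28 loci the median log2 ratio of aposporous to sexual means was -2.43, against -0.03 over all 4334. Sexual means ran from 2.13 to 317 RPKM with a median of 14.8, close to the 13.2 of all 4334 loci. The median of the longest transcript was 1020 nt, against 959.5 nt. The rule itself keeps loci with very low sexual levels out of the list, so nothing is read from these levels.

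**Figure D1:**
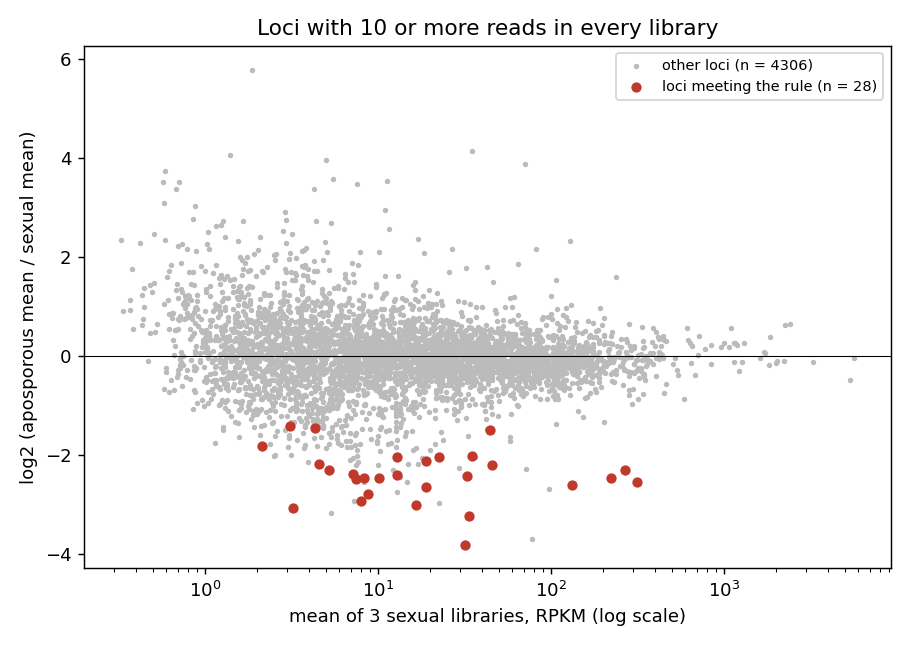
Each point is 1 locus with at least 10 reads in every library, with its mean over the 3 sexual libraries in RPKM on a log axis and the log2 ratio of the aposporous to the sexual mean. The 28 loci (red) spread from 2.13 to 317 RPKM, and grey points at similar ratios are loci whose phenotypes overlapped or differed by a factor under 2.

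A count of 10 reads in every library also shaped the list. Another 137 loci had at least 10 reads in each sexual library and met the factor of 2, but had fewer than 10 reads in an aposporous library. Of these, 55 had 3 reads or fewer in every aposporous library and 19 had none. Loci with next to no reads in aposporous ovules are thus outside the list, and the 28 are loci that stayed detectable there, with 11 reads or more in each library.

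Locus 8634 had the highest mean level in sexual ovules. It was at 359.6, 266 and 325 RPKM in sexual libraries 1 to 3 and at 87.1, 18.9 and 55.0 RPKM in aposporous libraries 1 to 3. Its means were 317 ± 47.5 and 53.7 ± 34.1 RPKM (SD, n = 3 libraries each), 5.90 times higher in sexual ovules. The lowest sexual library stood 3.05 times above the highest aposporous one, and aposporous library 2 was far below the others of its phenotype. Between 561 and 10255 reads per library stood behind these values.

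The next 3 loci by level shared a profile across libraries. Locus 100245, a single transcript of 417 nt, was at 396, 164 and 250.4 RPKM in sexual libraries against 66.3, 23.6 and 74.5 RPKM in aposporous libraries. Locus 82279 was at 344, 137 and 192 RPKM in sexual libraries against 46.5, 14.2 and 61.0 RPKM in aposporous libraries. Locus 110237, a single transcript of 504 nt, was at 199, 86.5 and 114 RPKM in sexual libraries against 24.9, 7.33 and 32.5 RPKM in aposporous libraries. All 3 were highest in sexual library 1, lowest of the sexual libraries in library 2, and lowest of all in aposporous library 2. The level of locus 110237 was 0.518 to 0.632 times that of locus 82279 in each of the 6 libraries. This was the steadiest ratio of the 378 pairs of members, picked out after the values were seen. Correlations within phenotypes above 0.95 were found for 1.85% of these pairs and 1.27% of all pairs of the 4334 loci. Sexual means were 4.93 times the aposporous ones for locus 100245, 5.53 times for locus 82279 and 6.17 times for locus 110237. Together with locus 8634 these were the only members above 50 RPKM in sexual ovules, and they made up 60.8% to 79.5% of the summed RPKM of the 28 loci in sexual libraries and 50.8% to 71.7% in aposporous libraries. Sums over the 28 loci therefore mostly follow these 4.

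**Figure D2:**
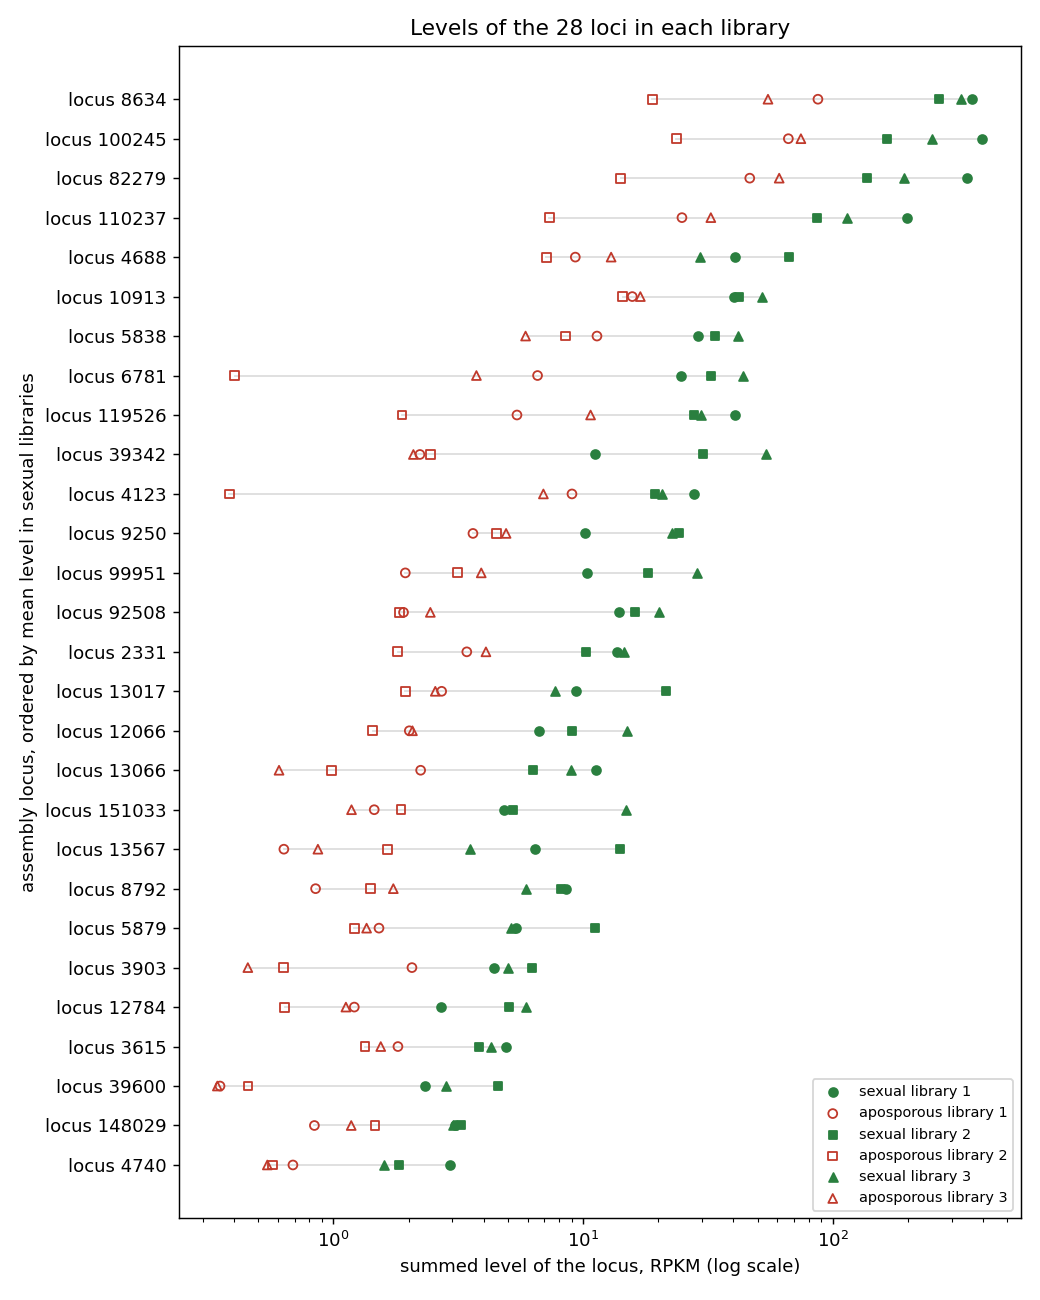
Summed RPKM of each of the 28 loci in each library on a log axis, ordered by the mean of the sexual libraries. Filled green symbols are sexual and open red symbols aposporous libraries, with 1 symbol shape per library number, and the rule itself keeps the phenotypes apart. The 4 loci at the top lie above 50 RPKM in sexual ovules, and loci 6781 and 4123 have their aposporous library 2 far to the left of the other values of the same locus.

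Between 10 and 50 RPKM in sexual ovules lay 13 loci. Locus 10913, whose longest transcript had 2356 nt, had even levels within each phenotype, at 40.1, 42.0 and 51.8 RPKM in sexual libraries against 15.7, 14.4 and 17.0 RPKM in aposporous libraries, 2.84 times higher in sexual ovules. Locus 5838 was at 28.9, 33.9 and 41.8 RPKM against 11.4, 8.50 and 5.88 RPKM, a ratio of means of 4.06. Spread within each phenotype was small at locus 10913, whereas at locus 5838 the aposporous CV was 31.9%, above the median of 22.7% over the 4334 loci. Locus 4688 was at 40.5, 66.9 and 29.4 RPKM in sexual libraries against 9.31, 7.13 and 12.9 RPKM in aposporous libraries. Here the sexual libraries differed more among themselves, with sexual library 2 above the others.

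The largest ratio of means belonged to locus 39342, represented by 1 transcript of 1150 nt. It was at 11.2, 30.2 and 54.0 RPKM in sexual libraries 1 to 3 and at 2.22, 2.45 and 2.09 RPKM in aposporous libraries 1 to 3, 14.1 times higher in sexual ovules. Its aposporous values were nearly equal while its sexual values spread widely, and the ratio was 9.19 without sexual library 3, below the 9.40 of locus 6781 over all libraries. Locus 92508, a single transcript of 321 nt, had the largest gap between phenotypes in summed RPKM. It was at 13.9, 16.1 and 20.2 RPKM in sexual libraries against 1.91, 1.85 and 2.45 RPKM in aposporous libraries, and its lowest sexual value was 5.67 times its highest aposporous value (95% exact interval from the reads 3.85 to 8.60, which covers counting error only). With reads scaled by library size alone, the gap of locus 8792 was larger, at 5.81.

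Loci 6781 and 4123 were each represented by a long transcript, of 1747 and 1691 nt, and were below 0.5 RPKM in aposporous library 2. Locus 6781 was at 24.7, 32.5 and 43.5 RPKM in sexual libraries against 6.57, 0.404 and 3.74 RPKM in aposporous libraries, where 25 reads stood against 337 and 258. Its sexual mean was 9.40 times the aposporous mean, 16.2 times without aposporous library 1 and 6.51 times without aposporous library 2. Locus 4123 was at 27.8, 19.4 and 20.6 RPKM in sexual libraries against 9.02, 0.384 and 6.93 RPKM in aposporous libraries. The ratio of means was 4.15 there, and 2.83 without aposporous library 2. The other aposporous libraries kept clear expression of both loci, so the size of the difference depended on the pool. Locus 119526 had a milder form of this, with 5.44, 1.88 and 10.7 RPKM in aposporous libraries against 40.4, 27.8 and 29.7 RPKM in sexual libraries. It was 5.43 times higher in sexual ovules, 8.92 times without aposporous library 3 and 4.04 times without aposporous library 2.

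**Figure D3:**
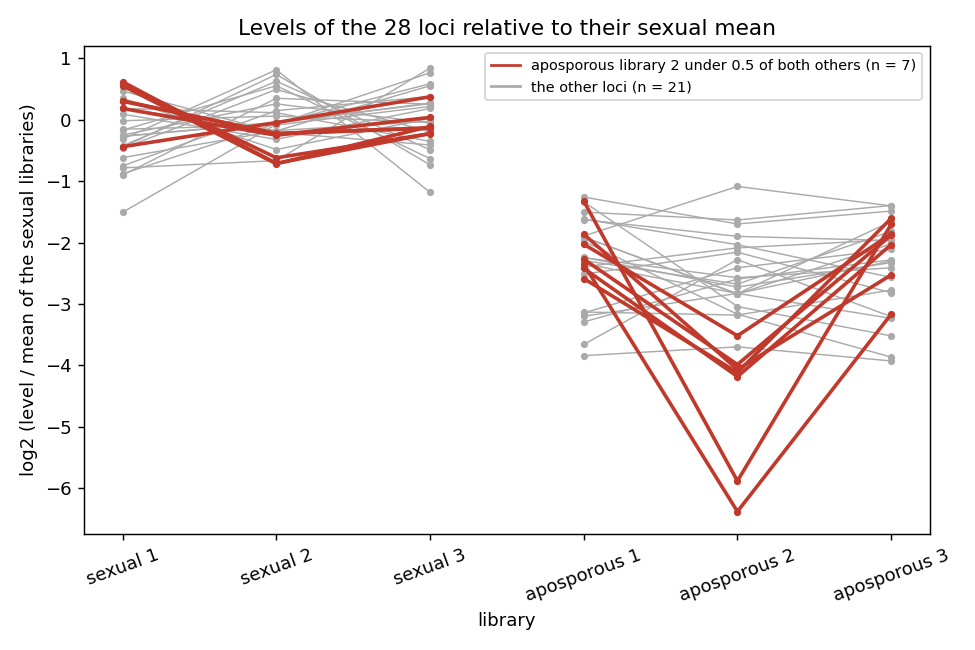
Level of each of the 28 loci in each library as log2 of its ratio to the mean of the sexual libraries. Red lines are the 7 loci whose aposporous library 2 was below 0.5 times both other aposporous libraries, among them loci 6781 and 4123 with the lowest points, and grey lines are the other 21.

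Of the remaining loci of this range, loci 99951, 9250, 2331, 13017 and 12066 had sexual means of 10.2 to 19.1 RPKM and aposporous means of 1.84 to 4.34 RPKM. Locus 99951 was at 10.3, 18.2 and 28.5 RPKM in sexual libraries against 1.94, 3.15 and 3.91 RPKM in aposporous libraries. At locus 13017, at 9.40, 21.4 and 7.71 RPKM in sexual libraries against 2.71, 1.94 and 2.56 RPKM in aposporous libraries, the ratio of means was 5.34, and 3.56 without sexual library 2. Locus 5879, at 5.39, 11.1 and 5.15 RPKM against 1.52, 1.22 and 1.36 RPKM, formed the next steadiest pair with it, at 0.521 to 0.668 times its level in all 6 libraries. In both, sexual library 2 was the high one. Locus 9250 had 10.2, 24.3 and 22.7 RPKM in sexual libraries against 3.62, 4.49 and 4.92 RPKM in aposporous libraries, 4.39 times higher in sexual ovules. Its margin came down to sexual library 1, the low one of its phenotype. Locus 12066 had 6.66, 9.00 and 15.0 RPKM in sexual libraries against 2.01, 1.44 and 2.07 RPKM in aposporous libraries, a ratio of means of 5.55. Locus 2331 had 13.7, 10.3 and 14.6 RPKM in sexual libraries against 3.42, 1.81 and 4.08 RPKM in aposporous libraries, a ratio of means of 4.15. The sexual libraries of locus 2331 lay closer together than those of locus 12066.

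Below 10 RPKM in sexual ovules were 11 loci, locus 5879 among them. Locus 39600, 1 transcript of 1549 nt, was at 2.34, 4.54 and 2.81 RPKM in sexual libraries against 0.352, 0.455 and 0.343 RPKM in aposporous libraries. Its gap between phenotypes was a factor of 5.13 (95% exact interval from the reads 3.34 to 8.20, which covers counting error only). At loci 13066, 151033, 13567 and 3903 a single library moved the ratio of means by more than 1.5 times. Locus 13066 had 11.2, 6.31 and 8.96 RPKM in sexual libraries against 2.24, 0.984 and 0.606 RPKM in aposporous libraries, a ratio of 6.92, and of 11.1 without aposporous library 1. Locus 3903 had 4.38, 6.23 and 5.02 RPKM in sexual libraries against 2.06, 0.633 and 0.455 RPKM in aposporous libraries, a ratio of 4.96, and of 9.58 without aposporous library 1. Both were clearly higher in aposporous library 1 than in the other aposporous libraries. Locus 151033 had 4.83, 5.25 and 14.9 RPKM in sexual libraries against 1.46, 1.87 and 1.18 RPKM in aposporous libraries, a ratio of 5.54, and of 3.35 without sexual library 3. Locus 13567 had 6.42, 14.1 and 3.53 RPKM in sexual libraries against 0.634, 1.65 and 0.868 RPKM in aposporous libraries, a ratio of 7.62, and of 4.74 without sexual library 2. At these loci 1 sexual library stood high.

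The remaining loci of the low range were 8792, 12784, 3615, 4740 and 148029, with ratios of means from 2.68 to 5.63. Locus 8792 had 8.53, 8.13 and 5.88 RPKM in sexual libraries against 0.849, 1.41 and 1.74 RPKM in aposporous libraries. Locus 12784 had 2.71, 5.05 and 5.92 RPKM in sexual libraries against 1.21, 0.638 and 1.12 RPKM in aposporous libraries. The gap was narrow at locus 12784, where sexual library 1 was low. Locus 3615 had 4.93, 3.84 and 4.26 RPKM in sexual libraries against 1.81, 1.34 and 1.55 RPKM in aposporous libraries. Spread within each phenotype was small there. Locus 4740 had the lowest sexual mean, with 2.94, 1.84 and 1.60 RPKM in sexual libraries against 0.689, 0.571 and 0.544 RPKM in aposporous libraries. Over all 28 loci, ratios of means ran from 2.36 to 18.7 when each library in turn was left out.

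The list ends at a factor of 2 without a break. Just inside stood loci 148029 (2.06), 9250 (2.08), 3615 (2.12), 3903 (2.12) and 13567 (2.14), and just outside loci 4627 (1.99), 12067 (1.98), 1375 (1.96), 12200 (1.96) and 2173 (1.89). Locus 148029 was at 3.08, 3.25 and 3.03 RPKM in sexual libraries against 0.840, 1.47 and 1.18 RPKM in aposporous libraries. Locus 4627 was at 12.6, 9.82 and 7.81 RPKM against 3.71, 3.94 and 2.21 RPKM.

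Among the loci left out, that of the *IDN2-like B* variant L13153_T20_20 also met the factor of 2, at 2.47 between its lowest sexual and highest aposporous library. The locus of L5704_T2_3, another variant of *IDN2-like B*, did not, at 1.41. IDN2 and the FDM proteins act in RNA-directed DNA methylation in *Arabidopsis thaliana*.

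Since the rule reads only the sum of a locus, the share of each transcript within the sum was not set by it directly. At 12 of the 28 loci at least 2 transcripts had reads. These 12 loci had 29 transcripts. Of these, 2 had a higher mean in aposporous ovules, both of locus 2331. At both the phenotypes overlapped, and L2331_T16_41 had only 6 reads in total. All aposporous values lay below all sexual ones for 20 of the 29. Among the 6269 transcripts of the table with 10 reads in every library, 9.28% were separated in this direction. Only 13 of the 29 had that many reads, so this share is not a like background. Since the rule fixed the sums, nothing is read from the members' count. At 6 of the 12 every transcript was so separated. No share over all loci stands beside these 6, and nothing is read from them either. The transcript with the most reads took a share of the locus that differed by less than 5 percentage points between phenotypes at 8 of the 12 loci. The median difference was 2.26 points, against 4.01 points over all loci of this kind.

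At 3 of the 12 loci the share of the leading transcript did not overlap between phenotypes, with the lower shares in aposporous ovules. Over the 2218 loci with at least 2 transcripts that had reads, 8.79% were so divided in this direction and 16.5% in either. The members were chosen for more reads in sexual libraries, so the transcript with the most reads tends to be one that is high there, and nothing is read from this count or its direction. At locus 8792 the 1233 nt transcript L8792_T4_25 took 67.2%, 62.4% and 48.3% of the locus in sexual and 29.3%, 14.6% and 8.27% in aposporous libraries. It was at 4.55 ± 1.51 and 0.199 ± 0.0528 RPKM (SD, n = 3), whereas the 397 nt transcript L8792_T12_25 was at 2.97 ± 0.143 and 1.14 ± 0.501 RPKM (SD, n = 3). The long transcript had 7 to 9 reads per aposporous library. With reads scaled by library size alone in place of RPKM, the log2 ratio of the locus was -3.28 and not -2.49.

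At locus 2331 the transcript L2331_T22_41 took 88.5%, 81.9% and 90.0% of the locus in sexual and 61.3%, 54.6% and 65.1% in aposporous libraries. Mean levels of L2331_T24_41 were 0.609 ± 0.712 RPKM in sexual ovules against 0.721 ± 0.230 RPKM in aposporous ovules (SD, n = 3), so that its share was the larger where the locus was low. At locus 8634 the 620 nt transcript L8634_T16_37 took 69.3%, 68.9% and 74.2% in sexual and 58.4%, 44.2% and 60.0% in aposporous libraries, and the 1007 nt transcript L8634_T28_37 took most of the rest. Both were lower in aposporous ovules, at 224 ± 36.1 against 30.7 ± 21.3 RPKM and 91.5 ± 15.8 against 22.8 ± 12.7 RPKM (SD, n = 3). These shares are a description and carry no test.

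**Figure D4:**
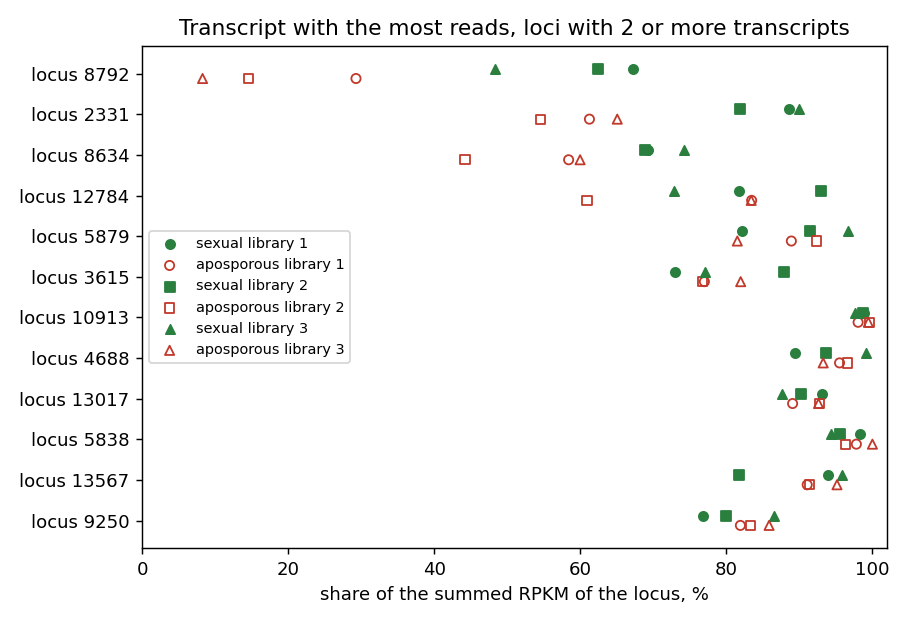
Share of the summed RPKM of a locus taken by its transcript with the most reads, in percent, for the 12 loci with at least 2 transcripts. Filled green symbols are sexual and open red symbols aposporous libraries. At loci 8792, 2331 and 8634 all aposporous libraries lie to the left of all sexual ones, and at the other 9 the phenotypes overlap.

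Shares were tested with limma over the 3269 transcripts that had at least 10 reads in every library and shared their locus with another such transcript. It called 5 of them (0.153%) at FDR ≤ 0.05. Only 4 transcripts of 2 members entered the fit, and 0 of them were called, with FDR of 0.488 and 0.469 for the pair of locus 8634 and 0.876 and 0.919 for the pair of locus 9250. At an unadjusted p under 0.05 stood 2 of the 4, both of locus 8634, and 8.01% of all transcripts tested. Within each pair the shares add up to all or nearly all of the locus and so mirror each other. The 4 transcripts thus stand for only 2 loci, and nothing is read from the 2 of 4. With 0.5 read added, which let transcripts with fewer reads enter, FDR was 0.0831 for L2331_T22_41, 0.175 for L8792_T4_25 and 0.111 for L8792_T12_25. No member passed the threshold in either fit. The other member transcripts could not enter the first fit. They had fewer than 10 reads in a library or shared their locus with no other transcript that had them.

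For the levels themselves, a limma fit of log2(RPKM + 1) over 6852 loci called 17 lower (0.248%) and 28 higher (0.409%) in aposporous ovules at FDR ≤ 0.05. The 17 included 6 of the 28 members, loci 92508, 39342, 8634, 5838, 10913 and 4688. The rule used the same contrast, so nothing is read from this count. Without sexual library 1, 2 or 3 the called members numbered 1, 0 and 2, and without aposporous library 1, 2 or 3 they numbered 0, 1 and 0. With voom on the reads 0 members were called, and 1 with 10 reads required in every library. Called members numbered 5 under TMM scaling, 6 under upper-quartile scaling and 7 with a pseudocount of 0.1. They numbered 9 without a read filter and 5 with the pool number as a replicate block.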

How the data were processed

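Against a joint de novo assembly, the authors counted reads of every library in CLC Genomics Workbench V 7 under default settings and deposited the values as RPKM for 67022 transcripts. No source used here gives filters on transcripts. All columns were matched to libraries by title, with 0 unmatched. RPKM was multiplied by the length in the transcript name and divided by a constant for each library, estimated from the values themselves. This gave whole reads (100% of values under 2000 reads, within 0.05 read). The mapped reads of each library were worked back from the same constant. Reads and RPKM were summed per locus. Reads shared between near-identical transcripts or loci may have been divided among them by the mapping.

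Members and lists were chosen with earlier results of these data known. Named loci are the 12 members with the highest sexual mean, the 12 with the largest gap, 5 on either side of the factor of 2, and the 5 with the most transcripts. Others are named to account for every member. The rule planned for transcripts that passed the share test named none.

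limma 3.58.1 (R 4.3.3, trend and robust, Benjamini-Hochberg) was fitted to log2(RPKM + 1) of loci with 10 reads in at least 3 libraries, and to log2 shares without a pseudocount. A fold change on the first scale understates that of low loci. In 5 simulated sets with a common dispersion of 0.0544, changes were planted only in loci that averaged at least 100 reads. The locus fit recovered 55.6% of these 2-fold and 100% of these 4-fold changes, and 3.47% of its calls were false. Recovery at loci with fewer reads was not simulated, and 14 members had fewer than 30 reads in an aposporous library. For shares, with changes planted only in transcripts that averaged at least 100 reads, 94.3% of loci with a 4-fold change of 1 transcript were recovered. There were 10.2 false calls per set. Other scalings, filters, pseudocounts, voom and the omission of each library were alternatives. Python 3.11.15 was used for sums and figures.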

Additional observations from a re-analysis of the deposited data

How the results depend on the processing

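The list of 28 loci held 24 loci under TMM scaling, 28 under upper-quartile scaling, 31 with reads scaled by library size alone (27 of the 28 and 4 others, without locus 3615) and 28 with the transcript with the most reads alone (26 of the 28 and 2 others, without loci 8792 and 9250). It held 44 loci at 5 reads in every library, 14 at 30 reads and 8 at a ratio of 3. At 30 reads the list is shorter by construction, since 14 members had fewer than 30 reads in an aposporous library. Across these settings other than the ratio of 3, 13 loci were kept in all 6. Without 1 library the count was 49 to 59, which the rule itself brings about by asking for fewer libraries. TMM scaling lost loci 4123, 13567, 3615 and 148029. The rule largely fixes the direction of single loci under these settings. Of the 330 values computed for the named loci, which include loci just outside the list, 2 moved by more than the spread between libraries. Both were of locus 8792 (log2 ratio -3.28 with reads scaled by library size alone and -4.51 with its leading transcript alone).

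Calls by limma were few and depended on the fit. Loci called lower numbered 17, and 31 with a pseudocount of 0.1, 1 with 10 reads in every library, 1 with voom and 0 to 3 without 1 library. Loci called higher numbered 28, and 68 with a pseudocount of 0.1, 2 with 10 reads in every library, 0 with voom and 0 to 24 without 1 library. At an unadjusted p under 0.05 stood 465 lower and 497 higher loci. Share calls numbered 5, and 1 at 30 reads in every library, 31 with 0.5 read added and 0 to 12 without 1 library. With 1 library left out a phenotype has 2 libraries, and limma pools their spread over loci. The causes were not tested. With the pool number as a replicate block, 8 loci were called lower, 22 higher and 2 transcripts by share. The numbers are not shown to pair the libraries, since deviations of same-numbered libraries correlated at 0.000373, 0.0613 and -0.00687.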

Other observations

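After the values were seen, 7 of the 28 loci stood out by having aposporous library 2 below 0.5 times both other aposporous libraries. They were loci 8634, 100245, 82279, 110237, 6781, 119526 and 4123, and they include the 4 most expressed members. Of the 4334 loci with 10 reads in every library, 2.98% had this profile. The corresponding profile with aposporous library 1 or 3 as the low one was found at 0 members, and at 1.25% and 5.93% of the 4334 loci. Aposporous library 2 was at 4.81% of the mean of the other 2 at locus 4123, at 7.83% at locus 6781 and at 23.3% to 33.5% at the remaining 5. Sexual library 1 was the highest sexual library at 6 of the 7, at 35.7% of the 28 loci and at 30.1% of the 4334. The summed level of the 7 loci was 1391, 733 and 975 RPKM in sexual and 246, 66.7 and 244 RPKM in aposporous libraries. For the other 21 loci the sums were 242, 342 and 347 RPKM in sexual and 67.9, 59.4 and 68.8 RPKM in aposporous libraries. The 7 loci were picked for a low aposporous library 2, so their low sum there follows from the choice. The sum of the other 21 was also lowest there, by less. With aposporous library 2 left out, sexual means of the 7 loci were 2.83 to 6.51 times the aposporous ones. The profile was chosen on these values and was not tested.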
